A study of Mus musculus with 4 samples.

Results

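Cells that meet double-stranded RNA in the cytoplasm, usually from a virus, answer through a short relay of sensor, adaptor, transcription factor and interferon. The relay was described here through 7 genes in testes lacking Adad2, a germ cell gene whose protein carries a double-stranded RNA binding domain. The members were the sensors Ifih1, Ddx58 and Eif2ak2, the adaptor Mavs, the transcription factor Irf3 and the interferon-induced genes Oasl2 and Isg15. They were taken by symbol from the deposited table, in which each of them has a single entry, out of 26068 entries that name a gene. RNA was sequenced from the whole testis of male mice aged 24 days, on the hybrid B6D2F1 background, with 2 libraries from testes homozygous for the Adad2 knockout and 2 from wild type testes. The labels do not say which part of Adad2 was removed, whether the mice came from more than 1 line, or whether the libraries of a group are separate animals. The p-values therefore measure only the spread between these libraries, which may be technical.

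As background, Ifih1 encodes MDA5 and Ddx58 encodes RIG-I, cytoplasmic helicases that bind double-stranded RNA and pass the signal to Mavs, a protein on the mitochondrial surface. Mavs activates kinases that phosphorylate Irf3, which enters the nucleus and switches on type I interferon. Secreted interferon acts through receptor-bound kinases and STAT proteins on promoters that hold an interferon-stimulated response element, and so raises Isg15, a ubiquitin-like protein, the oligoadenylate synthetase-like gene Oasl2, and the sensors themselves. Eif2ak2 encodes PKR, a kinase with double-stranded RNA binding domains that stops translation by phosphorylating eIF2 alpha.

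The core letters of that response element are shown because interferon acts through them, and they were looked for at all 7 members. The letters searched were GAAA, any 2 bases and GAAA again, on either strand, in the 300 bases from 250 before to 50 after each RefSeq start (build GRCm38.p6, which differs from the mm9 build of the expression table). They were found at 4 of the 7 members, Ifih1, Ddx58, Eif2ak2 and Isg15, and in 3.44% of all 32851 promoters of the reference table. The promoter of Isg15 held them 3 times in overlapping register, from base -78 to base -57, and the other 3 members held them after the start. The stretches run 5′ to 3′ along the strand of the gene and capitals mark the matched letters. They lie at chr2:62646206-62646235 (Ifih1, minus strand), chr4:40239804-40239833 (Ddx58, minus strand), chr17:78882535-78882564 (Eif2ak2, minus strand) and chr4:156200832-156200931 (Isg15, minus strand).
Ifih1: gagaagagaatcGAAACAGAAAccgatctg
Ddx58: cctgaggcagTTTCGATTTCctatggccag
Eif2ak2: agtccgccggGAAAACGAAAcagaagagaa
Isg15: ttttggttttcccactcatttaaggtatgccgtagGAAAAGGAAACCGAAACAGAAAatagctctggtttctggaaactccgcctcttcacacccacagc
These letters were not in the window at Mavs, Oasl2 or Irf3. The search covered only exact core letters in that window, so it does not show that these genes lack such an element. The 100 bases before the starts of Mavs and Oasl2 are shown as stretches without a match, at chr2:131233963-131234062 (Mavs, plus strand) and chr5:114896834-114896933 (Oasl2, plus strand).
Mavs: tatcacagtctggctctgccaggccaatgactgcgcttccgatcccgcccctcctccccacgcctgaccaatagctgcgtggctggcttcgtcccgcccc
Oasl2: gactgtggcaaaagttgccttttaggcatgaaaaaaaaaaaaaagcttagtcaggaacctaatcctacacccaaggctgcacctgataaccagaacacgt
A second interferon motif, the gamma-activated site core TTCNNNGAA, which reads the same on both strands, was found at 1 member, Eif2ak2, and in 8.3% of all promoters. A match describes the letters only.

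The 4 libraries held an estimated 29400000 to 36900000 reads, and the table gives RPKM, reads scaled to gene length and to library size, on the log2 scale. Adad2 itself stood at 3.73 and 3.30 log2 RPKM in the knockout libraries, against 4.66 and 4.47 in the wild type libraries, so transcript from the gene was still measured in the knockout (log2 change -1.05, SE 0.16, limma adjusted p = 0.00604; adjusted p = 0.143 without wild type replicate 1 and 0.0838 without wild type replicate 2). The filter kept 13414 genes whose mean log2 RPKM reached 0 (1 RPKM), and of these limma called 1122 (8.36%) at a Benjamini-Hochberg adjusted p under 0.05, with 163 (1.22%) higher and 959 (7.15%) lower in the knockout. With wild type replicate 1 left out, limma called 0 genes in either direction (2357 had an unadjusted p under 0.05). With wild type replicate 2 left out, it called 22 higher and 288 lower. The median change over all genes tested was 0.14 on the log2 scale, and 71.8% of them had a change above 0.

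None of the 7 members was called. Of the 7, 4 passed the filter and were tested by limma, of which 0 were called at an adjusted p under 0.05 and 1, Mavs, had an unadjusted p under 0.05. In the same fit 3616 of all 13414 genes tested had an unadjusted p under 0.05. The other 3, Ddx58, Ifih1 and Isg15, lay under 1 RPKM and are described from each library. Fitted without the filter, 0 of the 7 were called and 1 had an unadjusted p under 0.05. Of all 26068 entries, that fit called 4.51%, and 4516 had an unadjusted p under 0.05. All 7 changes were above 0, with a median of 0.14 over the 7 and of 0.30 over the 4 tested. Of all genes tested, 71.8% had a change above 0 and the median was 0.14. Over all entries without the filter the median was 0.10. Isg15 had 20 estimated reads in each group, and its change of 0.10 equals that of Ifnb1, a gene without reads. The sign for Isg15 therefore reflects only the scaling to library size. Both knockout libraries stood above both wild type libraries for 2 of the 7 members, Mavs and Oasl2, and this was the case for 46.4% of all genes tested.

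**Figure D1:**
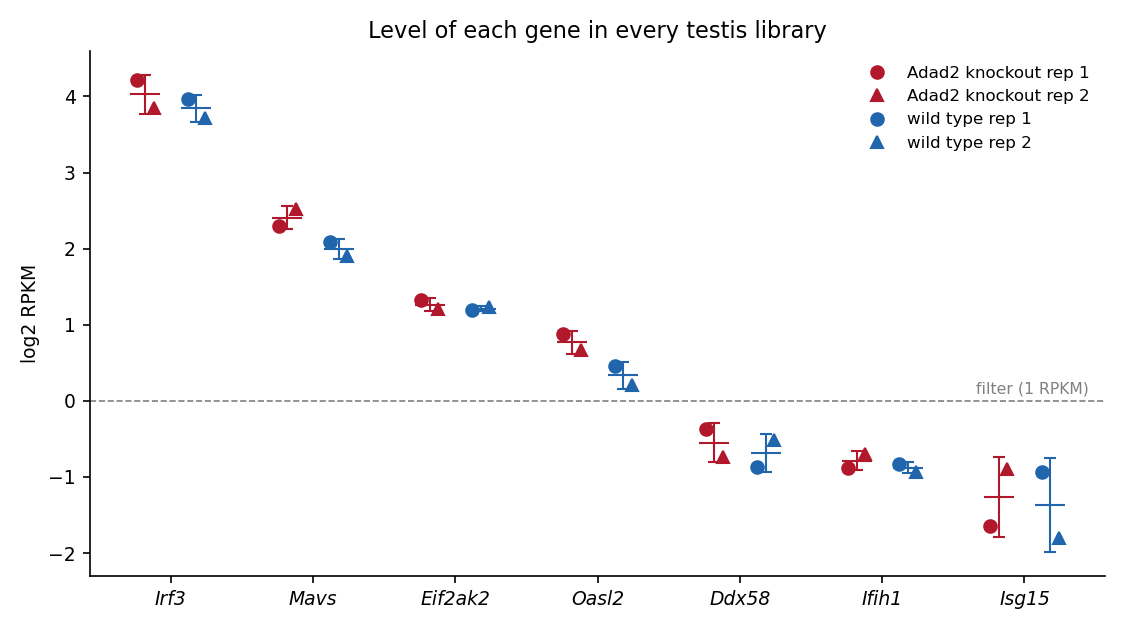
log2 RPKM of the 7 genes (vertical axis) in each of the 4 libraries, knockout in red and wild type in blue, with replicate 1 as circles and replicate 2 as triangles. Horizontal strokes with bars are group means ± SD (n = 2 each), and the dashed line is the filter; Irf3 is highest at 3.71 to 4.21, the knockout and wild type points separate for Mavs and Oasl2, and Ddx58, Ifih1 and Isg15 lie under the line.

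The 5 most abundant members kept the same order of levels in all 4 libraries. RPKM is per length, so levels can be set side by side between genes. Irf3 had the highest mean level at 3.93 log2 RPKM, followed by Mavs at 2.20, Eif2ak2 at 1.24 and Oasl2 at 0.55. The ranges over the 4 libraries did not overlap between any neighbours among these, nor between Oasl2 and Ddx58, which came next at -0.62. Ddx58, Ifih1 at -0.83 and Isg15 at -1.32 were neighbours whose ranges overlapped, so their order is not beyond the spread between libraries. The adaptor and transcription factor of the relay were thus measured at higher levels than its RNA helicases or its interferon-induced products. Irf3 was above 88.7% of all genes in the table by mean level, and Isg15 was above 39.0%.

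The groups overlapped for all 3 sensors. Eif2ak2 (ENSMUSG00000024079, mm9 chromosome 17 from 79251904 to 79281913, minus strand) had 1.32 and 1.20 log2 RPKM in the knockout libraries, against 1.19 and 1.23 in the wild type libraries. The groups overlapped, since a wild type library lay between the knockout libraries. The log2 change was 0.05 (SE 0.15, 95% confidence interval -0.29 to 0.40, limma adjusted p = 0.82). On the fold scale that interval runs from 0.816 to 1.32. At its 5′ end Eif2ak2 shares 532 bases with Gm16825 on the other strand, and the use of strand in counting is not given in the sources used here.

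Ddx58 (ENSMUSG00000040296, chromosome 4 from 40150806 to 40186861, minus strand), the RIG-I gene, had -0.37 and -0.73 log2 RPKM in the knockout libraries, against -0.87 and -0.51 in the wild type libraries. Knockout replicate 1 was highest and wild type replicate 1 lowest, and the groups overlapped. These levels came from an estimated 180 and 125 reads in the knockout libraries and 117 and 183 reads in the wild type libraries. In limma without the filter the change was 0.14 (95% confidence interval -0.56 to 0.83, adjusted p = 0.877), and it was below 0 without knockout replicate 1 (-0.05) or wild type replicate 1 (-0.04).

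Ifih1 (ENSMUSG00000026896, chromosome 2 from 62433850 to 62484312, minus strand), the MDA5 gene, had -0.88 and -0.70 log2 RPKM in the knockout libraries, against -0.83 and -0.93 in the wild type libraries, and the groups overlapped. The estimate was 146 and 148 reads in the knockout libraries and 139 and 158 reads in the wild type libraries. Without the filter the change was 0.09 (95% confidence interval -0.55 to 0.72, limma adjusted p = 0.879).

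Mavs, the adaptor that both helicases signal through, had the smallest p of the 7. Mavs (ENSMUSG00000037523, chromosome 2 from 131059799 to 131073761, plus strand) had 2.30 and 2.52 log2 RPKM in the knockout libraries, against 2.08 and 1.90 in the wild type libraries. Both knockout libraries were above both wild type libraries, with an estimated 542 and 565 reads in the knockout libraries, against 429 and 460 reads in the wild type libraries. The means were 2.41 ± 0.16 in the knockout and 1.99 ± 0.13 in the wild type (SD, n = 2 each). The change was 0.42 (SE 0.14), with a 95% confidence interval of 0.10 to 0.73 that includes the median change of all genes tested, 0.14. That change of Mavs is 1.34-fold and missed the threshold (limma adjusted p = 0.11). It passed the threshold without knockout replicate 1 (change 0.53, adjusted p = 0.0245), which leaves a lone knockout library that is assumed to vary like the wild type. No other gene of the table overlaps Mavs.

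Irf3, the transcription factor that Mavs signalling activates, was abundant in every library. Irf3 (ENSMUSG00000003184, chromosome 7 from 52253018 to 52258218, plus strand) had 4.21 and 3.85 log2 RPKM in the knockout libraries, against 3.97 and 3.71 in the wild type libraries. The groups overlapped, as knockout replicate 2 lay below wild type replicate 1. The change was 0.19 (SE 0.15, 95% confidence interval -0.17 to 0.54, limma adjusted p = 0.42). It was close to 0 without knockout replicate 1 and 0.37 without knockout replicate 2. Irf3 shares 1065 bases with Bcl2l12 on the other strand, and Bcl2l12 had 4.90 and 4.30 log2 RPKM in the knockout libraries, against 4.39 and 4.17 in the wild type libraries. The order of the 4 libraries was the same for both genes. Irf3 is controlled by phosphorylation, which RNA levels do not measure.

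Among the interferon-induced members, Oasl2 was the other gene with separate groups. Oasl2 (ENSMUSG00000029561, chromosome 5 from 115346943 to 115362243, plus strand) had 0.88 and 0.66 log2 RPKM in the knockout libraries, against 0.46 and 0.21 in the wild type libraries. Both knockout libraries stood above both wild type libraries. The means were 0.77 ± 0.15 in the knockout and 0.33 ± 0.17 in the wild type (SD, n = 2 each), a change of 0.44 (SE 0.19, 95% confidence interval -0.01 to 0.88, limma adjusted p = 0.192). Its fold of 1.35 has an interval from 0.993 to 1.84. Oasl1, its close relative, was under 1 RPKM and may share reads with it.

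Isg15, the most widely used marker of an interferon response, had the lowest level of the 7 members and few reads in each library. Isg15 (ENSMUSG00000035692, chromosome 4 from 155573533 to 155574927, minus strand) had -1.64 and -0.89 log2 RPKM in the knockout libraries, against -0.93 and -1.80 in the wild type libraries. With the exon length of 756 bases in Gencode M21, these values came out as 8 and 12 reads in the knockout libraries and 12 and 8 reads in the wild type libraries. The sums were 20 reads in the knockout and 20 in the wild type. A count of 8 has an exact Poisson 95% interval of 3.45 to 15.8 and a count of 12 one of 6.20 to 21.0, which cover counting error only. The groups overlapped fully. With single libraries left out, the change of Isg15 ran from -0.34 without wild type replicate 2 to 0.54 without wild type replicate 1. The change of 0.10 without the filter had a 95% confidence interval from -1.01 to 1.22 (limma adjusted p = 0.91). On the fold scale that interval runs from 0.495 to 2.32. It is not a limit of detection, and the smallest change that could be called for Isg15 was not estimated.

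**Figure D2:**
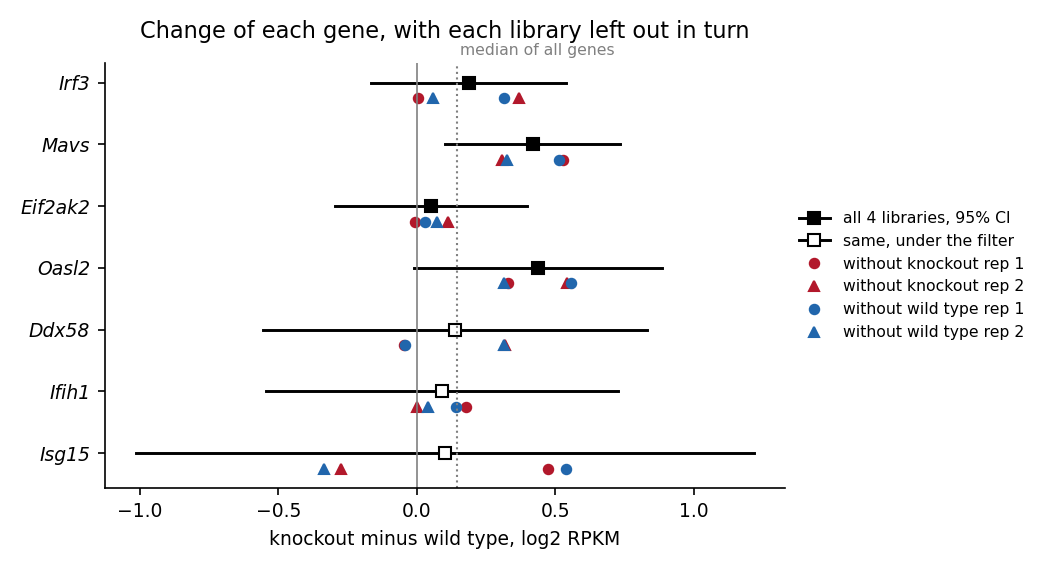
Knockout minus wild type on the log2 RPKM scale for each gene, with squares and lines for the change and its 95% confidence interval, filled for tested genes and open for genes under the filter, whose interval comes from the fit without a filter. Small red and blue symbols give the change with 1 library left out, and the dotted line is the median of all genes, 0.14. The interval of Mavs lies above 0, from 0.10 to 0.73, but includes that median. The interval of Isg15 is the widest, from -1.01 to 1.22.

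The wider relay was described with 11 lists that held 203 genes, of which 196 were found in the table and 102 were tested. Of the 102, 2 were called higher and 3 lower, which is 4.9% beside the 8.36% of all genes. Tyk2 and Ifi27l2a rose, and Isg20, Rnf125 and Dak fell. Of the 102 genes, 89 (87.3%) had a positive change, beside 71.8% of all genes, and their median was 0.22. Tested markers of Sertoli cells, spermatogonia, peritubular cells and Leydig cells, described below, had medians of 0.25, 0.24, 0.23 and 0.18. Those of spermatocytes and macrophages had 0.17 and 0.12, and the 2 tested endothelial markers had 0.38. Round spermatid, elongating spermatid and red blood cell markers went the other way, with medians of -2.16, -5.16 and -0.80. Both knockout libraries were above both wild type libraries in 60 (58.8%) of the list genes, beside 46.4% of all genes, and below them in 8 (7.84%), beside 16.8%. The lists were chosen with earlier results of these data known, so these shares are a description and no test was made over a list. With wild type replicate 1 left out, limma called 0 of the list genes (16 had an unadjusted p under 0.05), and with wild type replicate 2 left out it also called 0 (19 had one).

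Almost no reads came from the ligands. Of 21 interferon genes listed, 19 were found, and 13 of these, among them Ifnb1, stood at the floor of the table in all 4 libraries, which marks genes without reads. No interferon gene exceeded 0.0673 RPKM in any library. The 10 with an exon length in Gencode M21 had at most 2 reads in a library. Interferon alpha genes are near-identical copies, so reads could be split between them.

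Of 17 nucleic acid sensors found, 8 were tested and 0 called, with a median change of 0.17, and the other 9, Ifih1 and Ddx58 among them, lay under the filter. Ddx1 and Dhx9, helicases with many other roles in RNA metabolism, were the most abundant at 6.05 and 5.13 log2 RPKM. Dhx33 had the smallest p among them (2.73 ± 0.05 in the knockout, 2.43 ± 0.12 in the wild type, SD, n = 2 each, limma adjusted p = 0.155).

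Adaptors, kinases and ligases around Mavs were expressed in all libraries, and 0 of 20 tested were called, with a median change of 0.19. Azi2, an adaptor of the kinase Tbk1, had 2.81 ± 0.02 in the knockout and 3.09 ± 0.05 in the wild type (SD, n = 2 each, limma adjusted p = 0.138). Prkra, the activator protein of PKR, had 3.83 ± 0.10 in the knockout and 3.57 ± 0.16 in the wild type (SD, n = 2 each, limma adjusted p = 0.204). Ywhae, a 14-3-3 protein that carries RIG-I to the mitochondrion, was the most abundant of the list at 6.81 log2 RPKM. Of 9 tested interferon regulatory and NF-kB factors 0 were called, with a median of 0.14. Rela, the p65 subunit of NF-kB, stood with Irf3 at the top of that list at 3.94 log2 RPKM (change 0.23, limma adjusted p = 0.186), and Irf2, mostly a repressor of interferon genes, had a change of -0.45 (adjusted p = 0.209).

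Of 11 tested receptor and JAK-STAT genes, 1 rose and 0 fell, beside 1.22% of all genes called higher and 7.15% called lower. All 11 changes were above 0, beside 71.8% of all genes, and the median was 0.27. Tyk2, the kinase bound to the type I interferon receptor, had 3.05 and 3.09 log2 RPKM in the knockout libraries, against 2.24 and 2.40 in the wild type libraries. It rose 1.68-fold (log2 change 0.75, SE 0.11, 95% confidence interval 0.49 to 1.01, limma adjusted p = 0.00451). With wild type replicate 1 left out the adjusted p of Tyk2 was 0.102, and with wild type replicate 2 left out it was 0.0569. The whole of Tyk2 lies inside 1700084C06Rik on the other strand, whose change was 0.12 (adjusted p = 0.471), and reads of the pair may not have been told apart. Ifngr1, a chain of the interferon gamma receptor, had 2.29 ± 0.04 in the knockout and 1.87 ± 0.07 in the wild type (SD, n = 2 each, limma adjusted p = 0.0786). Jak1, the partner kinase of Tyk2, was the most abundant of the list at 3.18 log2 RPKM (change 0.30, adjusted p = 0.13).

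Among the interferon-stimulated effectors 1 gene rose and 1 fell, beside 1.22% of all genes called higher and 7.15% called lower. Of 51 found, 13 were tested and 38 were under the filter. Of the 13, 12 had a positive change, beside 71.8% of all genes, with a median of 0.29. Isg20, an exonuclease that degrades RNA, had 1.49 and 1.06 log2 RPKM in the knockout libraries, against 2.97 and 2.40 in the wild type libraries. It fell 2.65-fold (log2 change -1.41, SE 0.23, limma adjusted p = 0.0154). Ifi27l2a had 1.59 and 1.90 log2 RPKM in the knockout libraries, against 0.51 and 0.99 in the wild type libraries, and rose 1.99-fold (SE 0.20 on the log2 scale, adjusted p = 0.0202). Its depth was low, at 46 and 51 estimated reads in the knockout libraries and 20 and 34 in the wild type libraries. It shares 1512 bases with its relative Ifi27l2b on the same strand, so the reads of the pair are uncertain. Neither call held when wild type replicate 1 was left out (adjusted p = 0.141 for Isg20 and 0.211 for Ifi27l2a), when wild type replicate 2 was left out (0.0532 and 0.0803) or with no filter (0.0724 and 0.0858). Parp12 and Ifi27l1 were the most abundant effectors at 3.88 and 3.68 log2 RPKM, with changes of 0.38 (limma adjusted p = 0.0571) and 0.31 (adjusted p = 0.11).

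The Isg15 pathway and antigen presentation held 0 called genes. Of the 5 genes of Isg15 conjugation, Herc6, the mouse ligase, and Ube2l6, the conjugating enzyme, were tested, with changes of -0.09 and 0.21 (limma adjusted p = 0.64 and 0.516). Isg15, the activating enzyme gene Uba7 and the deconjugating enzyme gene Usp18 were under the filter. Of 6 tested genes of class I antigen presentation, 5 had a positive change, beside 71.8% of all genes, and the median was 0.29. The class I heavy chain H2-K1 had 5.25 and 5.13 log2 RPKM in the knockout libraries, against 4.86 and 4.73 in the wild type libraries (change 0.40, limma adjusted p = 0.0672), and may share reads with H2-D1. Psme1, a proteasome activator subunit, had a change of 0.39 (adjusted p = 0.109), and the peptide-loading factor Tapbp one of -0.19 (adjusted p = 0.243).

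Of 15 tested negative regulators, 0 rose and 2 fell, beside 7.15% of all genes called lower, and the median change was 0.16. Rnf125, a ubiquitin ligase that in human cells marks RIG-I for degradation, had 1.28 and 1.48 log2 RPKM in the knockout libraries, against 2.23 and 2.18 in the wild type libraries. It fell 1.77-fold (log2 change -0.83, SE 0.14, limma adjusted p = 0.00688). Dak, a dihydroxyacetone kinase that also binds and inhibits MDA5 in human cells, had 4.89 and 4.90 log2 RPKM in the knockout libraries, against 5.30 and 5.51 in the wild type libraries, and fell 1.42-fold (log2 change -0.51, SE 0.11, adjusted p = 0.029). Dak shares 7478 bases with Cybasc3 on the other strand, whose change was 0.35 (adjusted p = 0.0787). Neither call held when wild type replicate 1 was left out (adjusted p = 0.151 for Rnf125 and 0.0771 for Dak) or when wild type replicate 2 was left out (0.108 and 0.133). That of Dak was also lost with no filter (0.0799) and with limma without trend and robust estimation (0.0737). Pcbp2 and Rnaseh2a were the most abundant of the list at 5.99 and 5.94 log2 RPKM, with changes of 0.16 and -0.05 (limma adjusted p = 0.404 and 0.811).

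The PKR relatives and the eIF2 alpha axis were expressed throughout, with 20 of 20 genes tested, 0 called and a median change of 0.22. Eif2b1, a subunit of the exchange factor that eIF2 alpha phosphorylation blocks, had a change of 0.32 (limma adjusted p = 0.11). Ppp1r15a, which recruits the phosphatase that reverses it, had a change of 0.34 (adjusted p = 0.14). The phosphatase catalytic subunits Ppp1cc and Ppp1ca were the most abundant, at 5.22 and 5.13 log2 RPKM in the knockout and 5.22 and 4.88 in the wild type, with changes of -0.00 and 0.25 (adjusted p = 0.979 and 0.185).

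**Figure D3:**
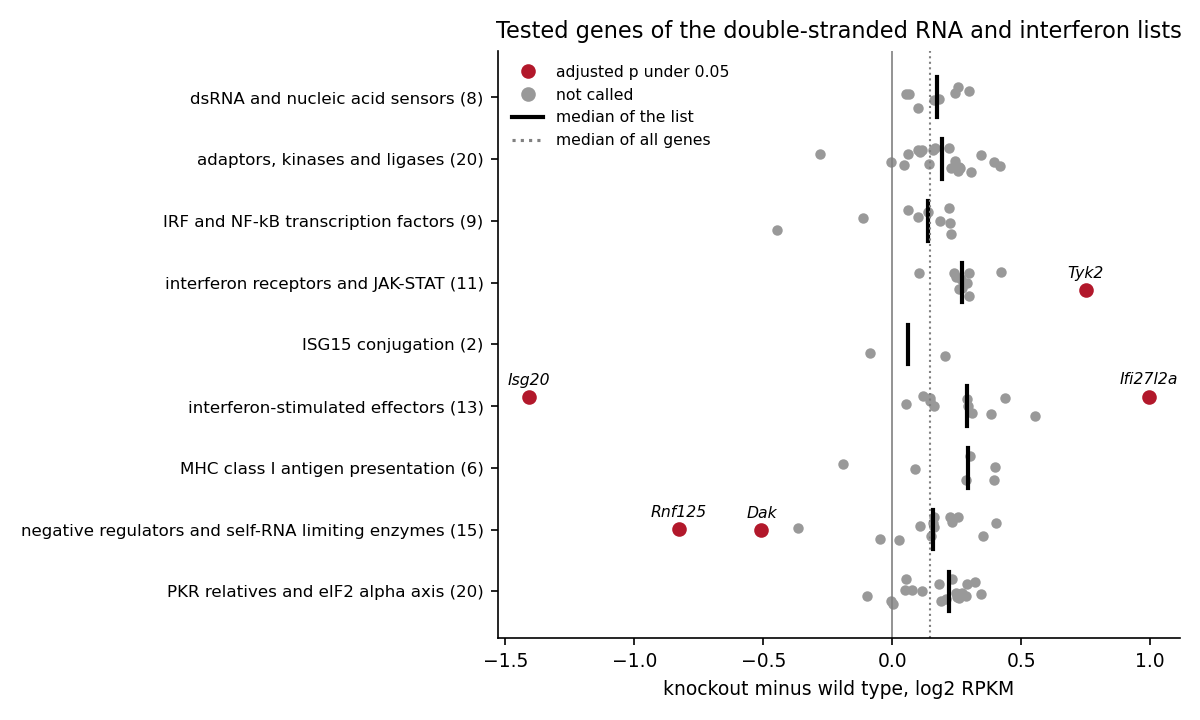
Knockout minus wild type on the log2 RPKM scale (horizontal axis) for the tested genes of each list, with the number tested in parentheses, called genes in red with their names, black strokes for the median of the list and a dotted line for the median of all genes, 0.14. The interferons, with no tested gene, and 1 further small list are not drawn; Tyk2 and Ifi27l2a lie on the right, at 0.75 and 0.99, and Isg20, Rnf125 and Dak on the left, at -1.41, -0.83 and -0.51.

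Over the 4 libraries the mean profile of the 4 tested members, each centred on its own mean, was 0.20 and 0.08 in the knockout libraries and -0.06 and -0.22 in the wild type libraries. The tested list genes with the nearest profile were Prkra, Rnf135 and Il10rb, at Euclidean distances of 0.0557, 0.0613 and 0.0736. This likeness rests on 4 libraries and is a description.

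Whole testis holds many cell types, and fewer cells of a type cannot be told apart from less RNA per cell. The clearest difference in the markers was in spermatids: the summed RPKM of 6 elongating spermatid markers was 32.4 to 62.4 in the knockout libraries and 736 to 768 in the wild type libraries, and that of 5 round spermatid markers was 67.4 to 82.5 in the knockout libraries and 163 to 177 in the wild type libraries. All 6 and all 5 of these markers had a change below 0. Limma called 5 of the 6 and 4 of the 5 lower, beside 7.15% of all genes. The 16 macrophage and monocyte markers found summed to 61.7 to 68.6 RPKM in the knockout libraries and 55.6 to 62.3 RPKM in the wild type libraries. Limma called 0 of the 12 tested, with a median change of 0.12. Of the 16, 15 had a change above 0, among them Emr1 and Fcgr1 with changes of only 0.008 and 0.009. Cd14, Fcgr1, Cd163 and Ptprc lay under the filter. The 71.8% of genes with a change above 0 covers tested genes only, so it is not a like share for the 16. The 10 lymphocyte markers summed to 1.99 to 2.04 RPKM in the knockout libraries and 2.07 to 2.18 RPKM in the wild type libraries, with Ncr1 at the floor in all 4. The 3 plasmacytoid dendritic cell markers summed to 0.611 to 0.710 RPKM in the knockout libraries and 0.455 to 0.488 RPKM in the wild type libraries. Most of that sum was Irf7, which is also an interferon list gene, at 0.673 and 0.505 RPKM in the knockout libraries and 0.405 and 0.448 RPKM in the wild type libraries. Siglech, a receptor of these cells, lay the other way, with an estimated 1 and 1 reads in the knockout libraries and 3 and 4 reads in the wild type libraries. Limma without a filter gave it an adjusted p of 0.0182, beside 4.51% of all 26068 entries called. Genes without reads carry 0.9 of a read, so that call rests on a few reads. Ccr9, the remaining marker, lay higher in the knockout, with an estimated 9.57 and 28.7 reads against 6.38 and 2.87 in the wild type (limma without a filter, adjusted p = 0.303). Endothelial markers summed to 6.41 to 6.54 RPKM in the knockout libraries and 5.10 to 5.82 RPKM in the wild type libraries, although 4 of the 7, Tek, Flt1, Tie1 and Pecam1, had a change below 0. Peritubular markers summed to 50.04 to 55.02 RPKM in the knockout libraries and 41.5 to 45.8 RPKM in the wild type libraries, although Cnn1 had a change of -0.19. Spermatogonial markers summed to 35.1 to 39.4 RPKM in the knockout libraries and 31.0 to 31.6 RPKM in the wild type libraries, although Gfra1 had a change of -0.33. Red blood cell markers, mostly globins, summed to 38.5 to 50.2 RPKM in the knockout libraries and 50.5 to 106 RPKM in the wild type libraries. Sertoli cell markers summed to 448 to 454 RPKM in the knockout libraries and 357 to 386 RPKM in the wild type libraries. Most of that sum was Clu, at 287 and 286 RPKM in the knockout libraries and 239 and 217 RPKM in the wild type libraries. The sums overlapped for Leydig markers (358 to 515 RPKM in the knockout, 305 to 454 in the wild type) and spermatocyte markers (799 to 800 and 702 to 826). Limma called 0 tested markers of the peritubular, spermatogonial, Sertoli, Leydig and spermatocyte lists. The part of these differences in the changes of Mavs, Oasl2 and the list genes was not tested.

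**Figure D4:**
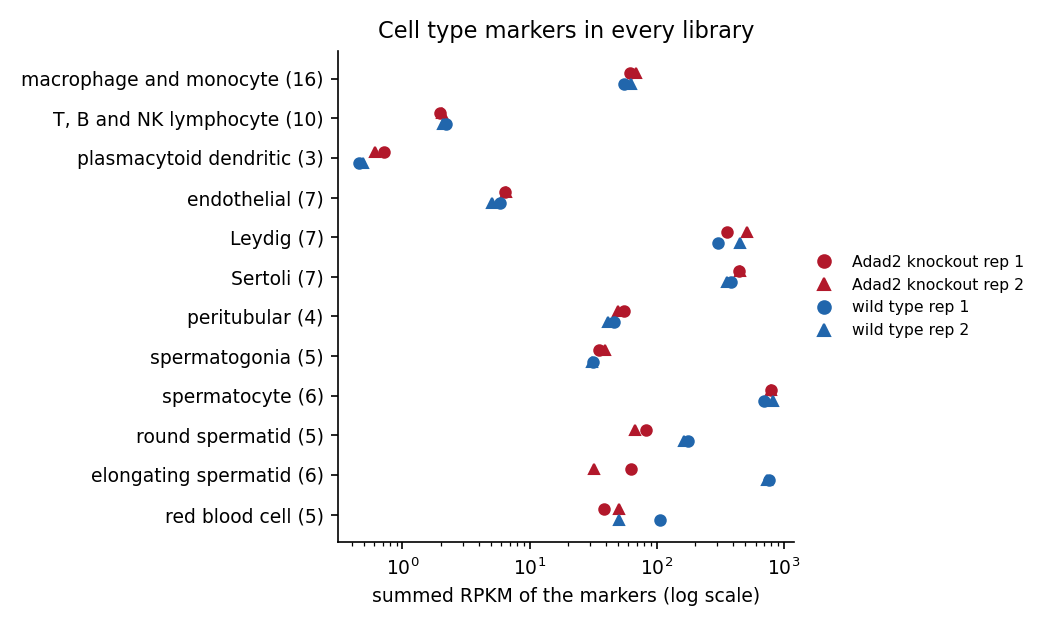
Summed RPKM of the markers of each cell type (log scale) in the 4 libraries, with the number of markers found in parentheses, knockout in red and wild type in blue, replicate 1 as circles and replicate 2 as triangles. Elongating spermatid markers are at 32.4 and 62.4 in the knockout and at 736 and 768 in the wild type, while macrophage and monocyte markers lie between 55.6 and 68.6 in all libraries.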

How the data were processed

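Libraries were prepared from whole testis RNA with TruSeq reagents, per the labels' protocols. Tools named, per the submitters' processing notes, are Bowtie2 and bcl2fastq 2.17.1.14, with mm9 as the genome. For the counting tool, annotation, strand use and filters, the sources used here give nothing. The authors deposited log2 RPKM values for 26127 entries. The 59 entries (0.226%) that name no gene were removed. The authors' group means and their log2 difference, control minus null, were not used. Column names gave the group and number of each library, and 0 columns of sample values were unmapped.

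Depth was estimated from the value of 1 read in 1194 single-exon genes, and genes without reads carry 0.9 of a read. To turn RPKM into reads, exon lengths were taken from Gencode M21, which is on another build, matched for 23618 entries. The estimates of 4 of the 7 members, Ddx58, Eif2ak2, Mavs and Isg15, were whole within 0.05 of a read in all 4 libraries.

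Entries with a mean of at least 0 log2 RPKM went into a two-sided, unpaired limma fit (limma 3.58.1 and statmod 1.5.0, R 4.3.3) with trend and robust settings, adjusted by Benjamini-Hochberg over all genes. No pseudocount was added. Folds of genes near the floor are understated. With 2 libraries against 2 an exact permutation test cannot give a p below 0.333. The code was tested on simulated data. Named genes are the members, Adad2, and in each list the called genes, the 2 with the smallest p and the 2 with the highest level. The members and lists were chosen with earlier results of these data known. Alternatives were other filters, log2(RPKM + 1), quantile normalization, equal medians, limma without trend, a replicate block and leaving out each library. The result of 1 further list gene is not reported here.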

Additional observations from a re-analysis of the deposited data

How the results depend on the processing

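The direction of the change of the 4 tested members held under each alternative that kept them (Oasl2 and Eif2ak2 do not reach the filter at 2 log2 RPKM), apart from Eif2ak2, which ran from -0.0081 (without knockout replicate 1, adjusted p = 0.986) to 0.11 with a library left out. The number of members called was 0 under the other filters and scalings, and 0 to 1 with a library left out. The labels do not pair the replicate numbers, and same-numbered libraries deviated together at a correlation of 0.33 over genes. With the replicate number as a block, 1 member was called (Mavs, adjusted p = 0.00669), with 6 list genes lower and 18 higher, and 1477 genes lower and 1837 higher in all. Over all genes the filter at 2 log2 RPKM gave 637 lower, no filter gave 97 higher and quantile normalization gave 245 higher. With a library left out, 0 to 1308 genes were lower and 0 to 494 higher. Among list genes no filter and the filter at 2 log2 RPKM gave 1 lower each, and quantile normalization gave 4 higher. With a library left out, 0 to 4 list genes were lower and 0 to 4 higher, with 0 in both directions without wild type replicate 1 or 2. The cause of these differences was not tested. For Isg15 the counting error of 8 to 12 reads a library limits what could be seen.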

Other observations

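Cxcl9, a chemokine gene that interferon gamma induces, lay far under 1 RPKM and was singled out after its values were seen. It had 0.125 and 0.152 RPKM in the knockout libraries, against 0.0342 and 0.0280 RPKM in the wild type libraries, from an estimated 12.5 and 13.5 reads in the knockout libraries and 3.11 in each wild type library. Without a filter limma gave a log2 change of 2.16 (SE 0.33, adjusted p = 0.0262), beside 0.372% of all 26068 entries called higher, and the size of that change rests on a few reads. Cxcl10, a related chemokine gene, had 2.96 and 14.8 estimated reads in the knockout libraries and 4.44 and 5.93 in the wild type libraries, and these groups overlapped.

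Mx1 and Rsad2 are antiviral genes that interferon induces. Mx1 had an estimated 13.5 and 3.11 reads in the knockout libraries, against 31.1 and 16.6 in the wild type libraries, while Rsad2 had 0.0771 and 0.0785 RPKM in the knockout libraries, against 0.0459 and 0.0376 RPKM in the wild type libraries. The groups of Mx1 and Rsad2 were apart in opposite directions. Mx2, with more reads, had an estimated 76.3 and 58.3 in the knockout libraries, against 29.9 and 47.8 in the wild type libraries. Of all genes tested, 46.4% had both knockout libraries above both wild type libraries and 16.8% had them below. Mx1, Rsad2 and Mx2 were singled out after their values were seen. They lay under the filter, so they are not among the genes of those shares, and no such share was computed for genes under the filter. Limma without a filter gave adjusted p = 0.393 for Mx1, 0.226 for Rsad2 and 0.217 for Mx2.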
